A study of Mus musculus with 96 samples.

Results

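The core circadian clock genes were followed in liver messenger RNA of F1 hybrid mice: Arntl, Npas2, Clock, Per1, Per2, Per3, Cry1, Cry2, Nr1d1 and Nr1d2. They were taken by gene symbol from the NOD and PWK allele tables, which makes 10 of 38924 genes. For each gene and mouse, the expected counts of both alleles were summed for its level, and the PWK share of that sum gave its allelic split. All 48 animals were males of reciprocal crosses between the inbred strains NOD/ShiLtJ and PWK/PhJ, and the strain that comes first in a cross name (NODxPWK or PWKxNOD) is read as that of the dam. Each cross contributed 24 mice, fed cholecalciferol (vitamin D3) at 0.009 g/kg as the normal diet or at 0.050 g/kg as the high vitamin D diet, and taken at a younger or an older age, which made 8 groups of 6. All mice of both crosses therefore carry 1 NOD and 1 PWK copy of every autosome, and no mouse of a parental strain was analysed here. The ages are labelled 8 for younger mice and 24 or 25 for older mice, with no unit, and the protocol text gives 15 and 24 weeks. The sources used here do not give the hour of day at which tissue was taken, so that a difference in hour between groups cannot be told apart from a difference of cross, age or diet.

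The circadian clock is a feedback loop of transcription that runs with a period of about a day in nearly every cell. ARNTL, also called BMAL1, pairs with CLOCK or with its paralogue NPAS2, and the pair binds E-box sequences and activates the Per, Cry and Nr1d genes. PER and CRY proteins then enter the nucleus and block that pair, and the nuclear receptors NR1D1 and NR1D2 (REV-ERB alpha and beta) compete with ROR receptors for short elements at Arntl, Npas2 and other genes and repress them. In liver, where the clock times much of metabolism, Arntl and Npas2 messenger RNA are known to peak at the opposite time of day to that of the Nr1d and Per genes, and Cry1 peaks later than Cry2 and the Per genes.

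RefSeq promoter windows on GRCm38.p6, each from 250 bases before to 50 after an annotated start, were given for 9 of the 10 genes, as 13 windows of 300 bases. Both strands were searched for the E-box CACGTG, the E-prime box CACGTT, the ROR/REV-ERB cores TAGGTCA and TGGGTCA, the D-box TTANGTAA and the cyclic AMP element TGACGTCA. The windows that held a match are shown because they carry the letters through which the loop is known to be wired, with the matched letters in capitals.
Arntl, chr7:113207261-113207560, + strand: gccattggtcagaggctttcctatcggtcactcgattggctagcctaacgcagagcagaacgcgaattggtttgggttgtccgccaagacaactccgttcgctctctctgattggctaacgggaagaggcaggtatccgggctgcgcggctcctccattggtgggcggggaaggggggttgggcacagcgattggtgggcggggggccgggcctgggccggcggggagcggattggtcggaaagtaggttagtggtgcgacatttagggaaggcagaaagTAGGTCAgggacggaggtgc
Per1, chr11:69098699-69098998, + strand: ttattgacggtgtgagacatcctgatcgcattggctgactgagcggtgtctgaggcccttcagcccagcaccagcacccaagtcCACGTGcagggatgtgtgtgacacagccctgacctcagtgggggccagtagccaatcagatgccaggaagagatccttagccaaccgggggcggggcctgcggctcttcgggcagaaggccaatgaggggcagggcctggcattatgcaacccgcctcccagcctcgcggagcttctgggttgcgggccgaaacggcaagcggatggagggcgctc
Per3, chr4:151044616-151044915, - strand: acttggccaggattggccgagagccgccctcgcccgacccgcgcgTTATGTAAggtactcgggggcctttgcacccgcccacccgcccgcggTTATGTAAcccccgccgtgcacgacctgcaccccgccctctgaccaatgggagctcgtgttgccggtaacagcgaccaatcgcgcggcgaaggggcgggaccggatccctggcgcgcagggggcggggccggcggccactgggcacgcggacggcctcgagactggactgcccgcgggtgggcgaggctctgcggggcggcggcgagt
Cry1, chr10:85185005-85185304, - strand: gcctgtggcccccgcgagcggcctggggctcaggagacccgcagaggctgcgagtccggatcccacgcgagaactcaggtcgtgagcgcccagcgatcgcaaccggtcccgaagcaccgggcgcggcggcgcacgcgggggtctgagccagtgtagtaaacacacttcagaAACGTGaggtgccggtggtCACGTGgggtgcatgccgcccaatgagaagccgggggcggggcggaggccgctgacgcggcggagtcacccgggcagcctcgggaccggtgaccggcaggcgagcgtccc
Cry2, chr2:92434020-92434319, - strand: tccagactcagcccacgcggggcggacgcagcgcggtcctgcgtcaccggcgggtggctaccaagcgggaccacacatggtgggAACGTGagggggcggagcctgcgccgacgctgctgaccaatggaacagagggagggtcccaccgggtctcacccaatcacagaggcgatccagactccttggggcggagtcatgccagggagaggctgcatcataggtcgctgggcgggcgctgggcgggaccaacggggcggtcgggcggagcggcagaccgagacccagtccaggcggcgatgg
Nr1d1, chr11:98775328-98775627, - strand: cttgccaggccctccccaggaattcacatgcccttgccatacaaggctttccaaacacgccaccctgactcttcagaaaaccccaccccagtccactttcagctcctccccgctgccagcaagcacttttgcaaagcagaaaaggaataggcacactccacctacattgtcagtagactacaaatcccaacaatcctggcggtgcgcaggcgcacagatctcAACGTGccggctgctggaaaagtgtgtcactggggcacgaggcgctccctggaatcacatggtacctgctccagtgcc
The E-box was found in Per1 and Cry1, and 7.15% of all 32851 windows of the same length held it. The E-prime box was found in Cry1, Cry2 and Nr1d1, on the antisense strand in each, and 4.68% of all windows held it. The second Arntl window held the ROR/REV-ERB core TAGGTCA from 31 to 37 bases after its start (2.61% of all windows), and the Per3 window held the D-box at 2 places (2.32%). TGGGTCA (3.98%) and the cyclic AMP element (1.79%) were in none of the 13 windows. None of these matches overlapped another. The windows of Npas2, Clock and Nr1d2, the first Arntl window and the second Per1 window held none of them.

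Summed expected counts per mouse ranged from 2025857 to 7480778 with a median of 5273518, and the 6 mice of 1 barcode were the shallowest, at 2025857 to 3090625. The liver identity of the samples was checked on 8 hepatocyte markers such as Alb and Apoa1, whose summed level was 68384 to 132572 CPM (counts scaled to a common library size). No marker of the 8 cell type lists was at 0 in every mouse. Pancreatic enzyme transcripts, from a list of 11, summed to more than 10 CPM in 10 mice, of which 4 were NODxPWK and 6 PWKxNOD, and 7 older and 3 younger, and reached 1500 CPM in a younger PWKxNOD mouse. The mouse at replicate 4 of the older NODxPWK high vitamin D group stood apart in these genes: it had the lowest Per3 (1.35 CPM), the lowest Per1 (0.580 CPM) and the lowest Nr1d2 (24.0 CPM) of all 48, and the highest Npas2 (15.7 CPM). In bulk samples, fewer cells of a type and less RNA per cell cannot be told apart.

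All 10 genes passed the low-count filter, which left 11979 genes. Per kilobase of exon, the mean level over 48 mice was highest for Nr1d1 (35.5 CPM per kb) and Nr1d2 (15.0 CPM per kb). Cry2 followed at 7.18 CPM per kb and Clock at 3.57, and Per2, Per3, Per1 and Cry1 lay close together at 3.03, 2.59, 2.52 and 2.46 CPM per kb. Arntl (1.12 CPM per kb) and Npas2 (0.550 CPM per kb) were lowest. Over all 48 mice the repressor receptors thus had the most transcript per length and Arntl and Npas2 the least. Clock, the other activator, ranked above the Per genes and Cry1, and the order among Per2, Per3, Per1 and Cry1 was within the spread between mice. This order did not hold in every group. In older NODxPWK mice on the normal diet, Arntl had a mean of 19.99 CPM and Per3, whose exons are longer, 5.12 CPM. In younger PWKxNOD mice on the high vitamin D diet, Clock had a mean of 40.3 CPM and Per3, whose exons are shorter, 51.1 CPM. Counts behind the lowest genes were few: Npas2 had a median of 5 counts per mouse and Arntl of 33, against 627 for Nr1d1. Exons of Nr1d1 overlap those of Thra on the other strand over 263 bases (8.55% of its exon bases), and those of Cry2 overlap D930015M05Rik over 295 bases (4.67%). The libraries were not stranded, so reads there cannot be assigned by strand, and the summed estimate, taken as whole within 0.01 counts, was whole for Nr1d1 in 0 of 48 mice and for Cry2 in 6 of 48.

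The reciprocal crosses differed widely in clock gene level. Arntl, the obligate partner of the activating pair, and Npas2 were several-fold higher in NODxPWK than in PWKxNOD livers, Clock was modestly higher, and all 3 Per genes, Nr1d2 and Cry2 were lower. Of the 10 genes, 8 passed the test of the cross, 24 mice against 24, where 10.7% of all 11979 genes did. The test was edgeR's quasi-likelihood test, with p-values adjusted over all genes. Of the 8, 3 were higher in NODxPWK (5.33% of all genes) and 5 lower (5.36%).

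Arntl (ENSMUSG00000055116, chr7:113207465-113314126) was at 5.40, 9.04 and 10.9 CPM (lowest, median and highest of 6) in younger NODxPWK mice on the normal diet and at 3.87, 12.8 and 14.5 CPM on the high vitamin D diet. In older NODxPWK mice it was at 13.1, 18.5 and 28.6 CPM on the normal diet and at 5.22, 9.96 and 24.6 CPM on the high vitamin D diet. In PWKxNOD mice the same 3 values were 2.30, 4.604 and 12.8 CPM (younger, normal), 0.907, 2.36 and 3.49 CPM (younger, high), 2.41, 5.73 and 7.70 CPM (older, normal) and 0.946, 1.56 and 3.25 CPM (older, high). The crosses overlapped only among younger mice on the normal diet. There, PWKxNOD mice at 5.89, 6.88 and 12.8 CPM lay above the lowest NODxPWK mouse, and the mouse at 12.8 CPM above every NODxPWK mouse. That mouse was of the shallow barcode and had 24 Arntl counts. Over all mice the log2 difference was 1.94 ± 0.19 (SE), or 3.84-fold higher in NODxPWK, with means of 13.2 ± 6.46 and 3.74 ± 2.84 CPM (SD, n = 24 each) and an edgeR adjusted p of 2.80e-10. Npas2 (chr1:39193731-39363236), which can replace Clock in the pair, was at 0.442 to 15.7 CPM in NODxPWK with a median of 2.67, and at 0 to 1.603 CPM in PWKxNOD with a median of 0.458. Its log2 difference was 3.22 ± 0.36 (edgeR adjusted p = 4.55e-09), and its crosses also overlapped only in the younger mice on the normal diet. For both genes the 6 mice of a cross did not overlap with the 6 of the other in 3 of 4 combinations of age and diet, which 0.351% of all genes reached in at least 3. Npas2 lay near the floor in PWKxNOD, at group means of 0.667 to 5.33 counts per mouse. It passed the low-count filter through its NODxPWK mice, so its fold, p-value and lack of overlap are not independent of that filter. Clock (chr5:76209868-76304792) had medians of 55.5 CPM in NODxPWK and 42.9 CPM in PWKxNOD, and its log2 difference was 0.42 ± 0.08 (edgeR adjusted p = 5.69e-05). Its ranges overlapped broadly, from 42.6 to 77.5 CPM against 24.4 to 63.7 CPM.

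**Figure D1:**
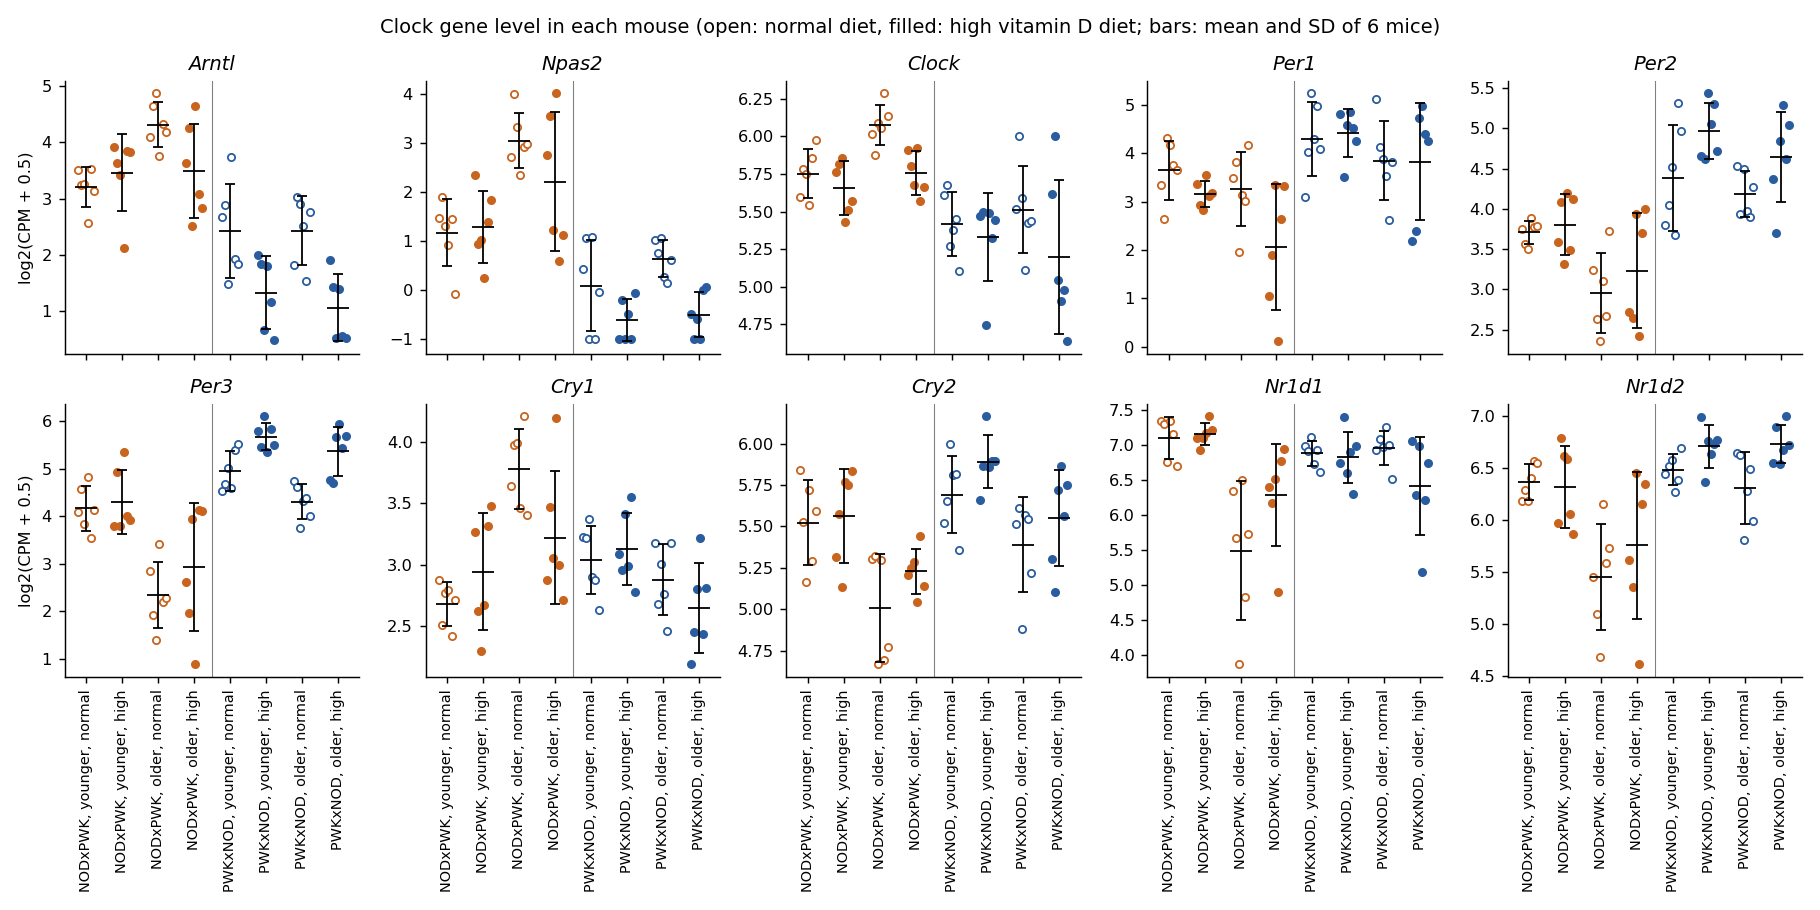
Level of each clock gene as log2(CPM + 0.5) on the vertical axis in 48 mice, by group on the horizontal axis (orange NODxPWK, blue PWKxNOD; open normal diet, filled high vitamin D diet), with the mean and SD of 6 mice. Arntl and Npas2 sit higher on the NODxPWK side and Per1, Per2 and Per3 higher on the PWKxNOD side, with the older NODxPWK normal diet group highest for Arntl (mean 19.99 CPM) and lowest for Per3 (mean 5.12 CPM).

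The Per genes, which encode the inhibitors that enter the nucleus with CRY, ran the other way. Per3 (chr4:151003652-151044665) had a median of 13.6 CPM in NODxPWK (1.35 to 40.1 CPM) and of 35.9 CPM in PWKxNOD (12.99 to 67.8 CPM). Its log2 difference was -1.53 ± 0.18 (edgeR adjusted p = 2.29e-08), 2.89-fold lower in NODxPWK. In older mice the crosses did not overlap on either diet: on the normal diet the highest NODxPWK mouse was at 10.1 CPM and the lowest PWKxNOD mouse at 12.99 CPM, and on the high vitamin D diet these were at 16.98 and 25.6 CPM. Per3 and Per2 each had no overlap in 2 of the 4 combinations of age and diet. The share of all genes that reached 2 was not counted. Per2 (chr1:91415982-91459324) had medians of 11.4 CPM (4.61 to 17.8) and 23.4 CPM (12.3 to 42.7), a log2 difference of -1.16 ± 0.14 (edgeR adjusted p = 3.81e-08). Per1 (chr11:69095217-69109960) had medians of 9.07 CPM (0.580 to 19.4) and 18.6 CPM (4.07 to 37.3), a log2 difference of -1.06 ± 0.22 (edgeR adjusted p = 0.000770). All 3 overlapped between crosses, Per1 most.

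The repressor receptors and the cryptochromes differed less. Nr1d2 (chr14:18204054-18239127) had medians of 70.8 CPM in NODxPWK (24.0 to 110) and 96.5 CPM in PWKxNOD (55.5 to 127), a log2 difference of -0.53 ± 0.10 (edgeR adjusted p = 0.000234). Cry2 (chr2:92403646-92434043) had medians of 38.9 CPM (24.9 to 56.9) and 50 CPM (28.97 to 71.2), a log2 difference of -0.30 ± 0.07 (edgeR adjusted p = 0.00237). Nr1d1 (chr11:98767932-98775333), at medians of 108 CPM (14.2 to 170) and 121 CPM (36.1 to 169), had a log2 difference of -0.21 ± 0.14 that missed the threshold (edgeR adjusted p = 0.409). Cry1 (chr10:85131700-85185064), at medians of 7.66 CPM (4.43 to 17.96) and 7.10 CPM (4.07 to 11.2), had one of 0.26 ± 0.11 (edgeR adjusted p = 0.122). The members without a call were thus the more abundant receptor and the later-peaking cryptochrome. The 8 calls were made under each alternative setting tried, including the fits that left out a lane set, the mice labelled 25, those with pancreas transcripts, those of the shallow barcode and the mouse that stood apart. Without the 7 mice labelled 25, Nr1d1 was called too, at -0.69 (edgeR adjusted p = 0.0178), with 1 mouse left in the older NODxPWK normal diet group and assumed to vary like the others.

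Of 20 other genes of the clock and its output, 19 were tested and 9 differed between the crosses, 1 higher and 8 lower in NODxPWK. The 4 with the smallest p-values were lower in NODxPWK: Wee1, a cell cycle kinase (-1.38 ± 0.15), Usp2, a ubiquitin protease (-2.45 ± 0.30), Tef, a D-box activator (-0.82 ± 0.10), and Ciart, a repressor of the activating pair (-2.31 ± 0.31), with edgeR adjusted p-values of 9.40e-10, 5.47e-08, 1.39e-07 and 3.98e-07. The median log2 difference over the 19 genes was -0.15, that of the 10 core genes was -0.26 and that of all genes tested was 0.00. Markers of other cell types also differed between the crosses. The summed level of 5 red blood cell genes was 187 to 869 CPM in NODxPWK (median 451) and 53.6 to 776 CPM in PWKxNOD (median 263), and that of 5 stellate cell genes 43.3 to 177 CPM (median 64.8) and 41.3 to 167 CPM (median 87.7). The 8 hepatocyte markers had medians of 103204 and 93897 CPM. Their part in the cross differences was not tested.

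**Figure D2:**
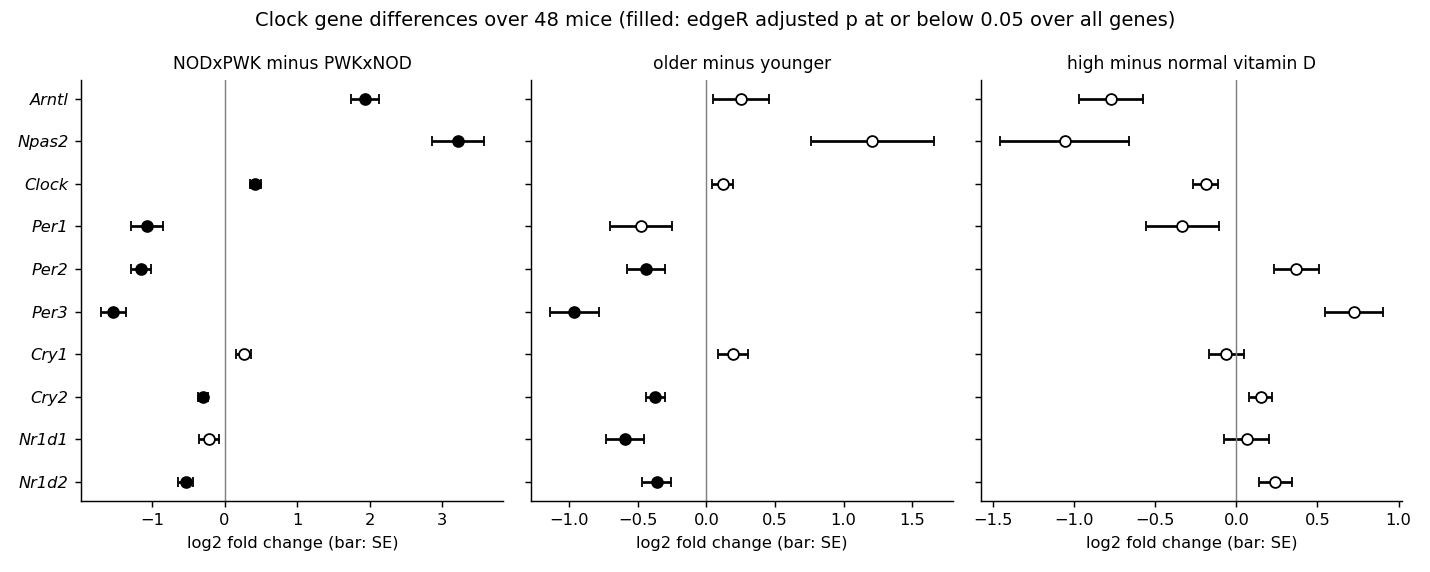
Log2 fold change on the horizontal axis (bar: SE) of each clock gene for the cross, age and diet over 48 mice; filled points passed the edgeR threshold of 0.05 adjusted over all genes. In the cross panel Npas2 (3.22) and Arntl (1.94) lie farthest to the right and Per3 (-1.53) farthest to the left, and no point is filled in the diet panel.

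With age, 5 of the 10 genes were lower in older livers and none was higher. Of all genes, 12% passed in either direction and 5.59% were lower in older mice. Per3 had means of 19.4 ± 16.7 and 30.5 ± 15.9 CPM at the older and younger age (SD, n = 24 each), a log2 difference of -0.96 ± 0.18 (edgeR adjusted p = 0.000136). Nr1d1 had means of 89.0 ± 38.8 and 129 ± 24.8 CPM (-0.59 ± 0.14, edgeR adjusted p = 0.00273), and Cry2 39.7 ± 8.76 and 51.1 ± 9.11 CPM (-0.37 ± 0.07, edgeR adjusted p = 0.000142). Per2 (-0.44 ± 0.14, edgeR adjusted p = 0.0268) and Nr1d2 (-0.36 ± 0.10, edgeR adjusted p = 0.0137) were the smaller calls. The ranges of the ages overlapped for all 5, from 14.2 to 153 CPM against 78.8 to 170 CPM for Nr1d1, for example. Of the activators, Npas2 was at 1.21 ± 0.45 (edgeR adjusted p = 0.0729), Arntl at 0.25 ± 0.20 and Clock at 0.12 ± 0.08, none of them called. DESeq2 called Npas2 (adjusted p = 0.00923), and edgeR called it without lane set 2 (adjusted p = 0.0468). The 5 genes called lower were thus all of the inhibitory limb, but that limb did not fall as a whole. Per1 was lower without a call (-0.48 ± 0.22, edgeR adjusted p = 0.179). Cry1 had a positive value without a call (0.19 ± 0.11, edgeR adjusted p = 0.284), as the activators did. Without the 10 mice with pancreas transcripts, 3 of the 5 calls were left (Per3, Cry2 and Nr1d1). Per2 was at -0.38 (edgeR adjusted p = 0.156) and Nr1d2 at -0.36 (edgeR adjusted p = 0.0779) in that fit. The Per2 call was also lost without lane set 2 (-0.38, adjusted p = 0.0798), 4 (-0.42, 0.0680) or 5 (-0.36, 0.146), without the low-count filter (-0.45, 0.0586) and, at a larger value, without the mice labelled 25 (-0.64, 0.0905).

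Of the 19 other clock genes, 2 were higher and 4 lower with age. Dbp, a D-box activator driven by the clock, was lower (-1.30 ± 0.23, edgeR adjusted p = 6.84e-05), as were Tef (-0.41 ± 0.10) and Bhlhe40, an E-box repressor (-0.36 ± 0.10). Nfil3, which represses through the same D-box, was higher (0.54 ± 0.10, edgeR adjusted p = 0.000200). Bile duct markers summed to 28.2 to 122 CPM in older mice (median 45.9) and to 23.4 to 40.04 CPM in younger mice (median 31.4), and red blood cell genes to a median of 373 CPM against 290 CPM. At the older and the younger age, 6 lymphocyte markers had medians of 41.4 and 66.9 CPM, and the stellate genes of 88.8 and 66.5 CPM. Their part in the age differences was not tested.

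Cry1 was the gene whose age difference depended on the cross. In NODxPWK mice on the normal diet it was at 4.86, 6.19 and 6.83 CPM (lowest, median and highest) in younger mice and at 10.1, 13.6 and 17.96 CPM in older mice. In PWKxNOD mice on the normal diet it was at 5.71, 7.88 and 9.85 CPM and at 5.02, 6.91 and 8.56 CPM. On the high vitamin D diet the ages overlapped in both crosses, with 4.43, 7.502 and 10.7 CPM in younger and 6.05, 7.66 and 17.8 CPM in older NODxPWK mice, and 6.35, 7.73 and 11.2 CPM and 4.07, 5.72 and 8.79 CPM in PWKxNOD mice. The age by cross term was 1.08 ± 0.22 (edgeR adjusted p = 0.0227), where 6 of 11979 genes (0.0501%) passed, and Cry1 was the 1 member among them. This call sat near the threshold: the value was 0.94 to 1.36 over the alternatives, with an edgeR adjusted p of 0.00247 to 0.284. The call was lost with the lane set as a block (0.0553), without lane sets 1 (0.0978), 2 (0.109), 3 (0.138) or 5 (0.284), without the mice labelled 25 (0.156), without the shallow barcode (0.0866) and without the mice with pancreas transcripts (0.132). No member passed the age by diet term (0.618% of all genes did) or the diet by cross term (0.125%). By edgeR, 1 and 4 members had an unadjusted p under 0.05, as did 1434 and 1668 of all 11979 genes.

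Fewer calls were made for the diet. Across all mice no member passed (0.342% of genes did), although 7 of 10 had an unadjusted edgeR p under 0.05, as did 1323 of all 11979 genes. Per3 came closest, with 31.2 ± 19.7 CPM on the high vitamin D diet and 18.7 ± 11.3 CPM on the normal diet (0.73 ± 0.18, edgeR adjusted p = 0.0562), followed by Arntl with 6.94 ± 6.51 and 9.97 ± 7.01 CPM (-0.77 ± 0.20, edgeR adjusted p = 0.0605). DESeq2 called both (adjusted p of 0.0177 and 0.00890), edgeR called both without the mouse that stood apart (0.0164 and 0.0219), and the lane set block called Arntl (edgeR adjusted p = 0.0484). Within older mice 2 members passed, where 3.71% of all genes did: Arntl at -1.16 ± 0.28 (edgeR adjusted p = 0.0105) and Per3 at 1.03 ± 0.27 (edgeR adjusted p = 0.0214). In older PWKxNOD mice Arntl on the high vitamin D diet was at 0.946 to 3.25 CPM and on the normal diet at 2.41 to 7.70 CPM, a narrow overlap, and Per3 there was at 25.6 to 60.3 CPM and at 12.99 to 26.2 CPM. In older NODxPWK mice the diets overlapped more broadly, with Arntl at 5.22 to 24.6 CPM on the high vitamin D and 13.1 to 28.6 CPM on the normal diet. Per3 in them was at 1.35 to 16.98 CPM and at 2.15 to 10.1 CPM. Neither call held without the 7 mice labelled 25, all of which were older mice on the normal diet: Arntl was at -1.39 and Per3 at 1.76, both larger, with edgeR adjusted p-values of 0.165 and 0.320. Without the 10 mice with pancreas transcripts they were at -0.98 and 0.87 (0.265 and 0.346), without lane set 3 at -0.89 and 0.81 (0.105 and 0.181) and without lane set 6 at -0.99 and 0.81 (0.107 and 0.226). Per3 alone was also lost without lane set 5 (0.92, adjusted p = 0.107) and without the shallow barcode (1.01, adjusted p = 0.0523). Over both ages, the stellate genes had medians of 64.8 CPM on the high vitamin D and 93.8 CPM on the normal diet, and the red blood cell genes of 404 and 301 CPM, and their part in the diet differences was not tested. Among the 3 other clock genes called in older mice, Nfil3 (-0.62 ± 0.14) was lower on the high vitamin D diet, and Dbp (1.44 ± 0.34) and Bhlhe41 (1.31 ± 0.33), an E-box repressor, were higher. Without lane set 3 all 3 calls were lost (edgeR adjusted p = 0.0808, 0.105 and 0.189). They were also lost without lane set 5, the mice with pancreas transcripts or the mice labelled 25, and those of Dbp and Bhlhe41 without lane set 6. In younger mice no gene of the whole table passed by edgeR (0%), 573 genes had an unadjusted p under 0.05, none of them a member, and DESeq2 called 10 genes and no member.

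Mice of the same group differed widely in clock gene level. The SD of log2(CPM + 0.5) within groups was 0.84 for Per1, 0.77 for Npas2, 0.67 for Per3, 0.64 for Arntl and 0.54 for Nr1d1, where the median gene had 0.26. That of Per1 was larger than in 97.5% of the genes tested and that of Per3 larger than in 95.6%. Cry2 (0.25) and Clock (0.27) varied about as much as the median gene. Counting alone adds more spread to genes of few counts, and Npas2 had a median of 5 counts per mouse and Arntl of 33. Its part in these SDs was not tested, and genes of like depth were not compared.

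These deviations were shared between genes, with the activators opposed to the Per genes, the Nr1d genes and Cry2. Cry1, also an inhibitor by role, did not follow this and was counted apart. The uniform signs given below depend on that choice, which rests on these same data. Cry1 had a positive r in 2 of its 3 pairs with activators. Its r was negative in 4 of its 6 pairs with the other inhibitors. Deviations of each mouse from its group mean were compared over 48 mice for all 45 pairs, and a pair was called where edgeR passed each gene with the other as covariate, adjusted over all genes. Of the 45 pairs, 12 were called, 4 of them positive. With 1 member as covariate, 0.0417% (Nr1d1) to 20.2% (Nr1d2) of all genes passed. All 18 pairs of an activator (Arntl, Npas2 or Clock) with a Per gene, an Nr1d gene or Cry2 had a negative r, from -0.71 to -0.02, and 7 were called. All 15 pairs among the Per genes, the Nr1d genes and Cry2 had a positive r, from 0.16 to 0.77, and 3 were called. The weakest of the 18 were those of Clock with Nr1d1 (-0.05) and Nr1d2 (-0.02). The 3 pairs of Cry1 with the activators differed in sign, from -0.18 to 0.37, and none was called.

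Arntl and Per3 had the most negative pair: r was -0.71 and rho -0.70, each with a permutation p of 1e-05, the smallest that the permutations within groups can give. The sign was negative in 8 of 8 groups and in 6 of 6 lane sets, and r was -0.70 without the 2 mice farthest from the median. The larger edgeR adjusted p of the pair was 0.000928. Npas2 and Per3 had an r of -0.70 (rho -0.61, permutation p = 2e-05 and 0.00018), which was -0.60 without the 2 farthest mice. Arntl and Npas2, which are both repressed by the NR1D receptors, moved together (r = 0.60, rho = 0.53, permutation p = 0.00021 and 0.00072, 0.55 without the 2 farthest). Per3 and Nr1d2 gave the most positive pair (r = 0.77, rho = 0.64, permutation p = 1e-05 and 5e-05, 0.69 without the 2 farthest). Per2 went with Per3 (r = 0.72, rho = 0.72, both permutation p = 1e-05, 0.72 without the 2 farthest) and with Per1 (r = 0.71, rho = 0.69, permutation p = 2e-05 and 5e-05, 0.69 without the 2 farthest). Arntl with Npas2 kept its sign in 6 of 8 groups, with r down to -0.61, and in 5 of 6 lane sets. Npas2 with Per3 and Per2 with Per3 kept theirs in 7 groups, Per3 with Nr1d2 in 6 and Per1 with Per2 in 8. Npas2 was near the floor in PWKxNOD, at group means of 0.667 to 5.33 counts per mouse, which limits its pairs.

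**Figure D3:**
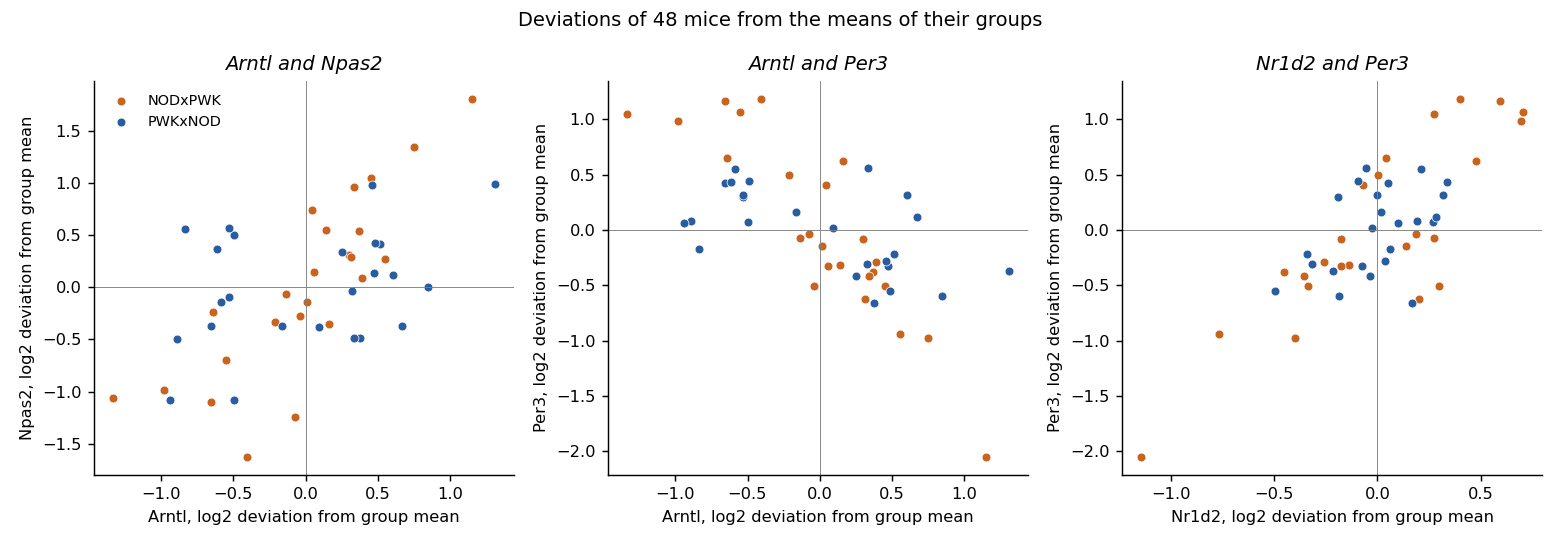
Deviations in log2 units of 48 mice from their group means, for Arntl and Npas2, Arntl and Per3, and Nr1d2 and Per3 (orange NODxPWK, blue PWKxNOD). The r values are 0.60, -0.71 and 0.77, and the orange point lowest in Per3 is the mouse that stood apart.

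The other called pairs were Arntl with Nr1d2 (r = -0.60, rho = -0.59, permutation p = 2e-05 and 6e-05, -0.61 without the 2 farthest) and with Per2 (r = -0.60, rho = -0.62, permutation p = 0.00014 and 5e-05, -0.57). Npas2 went against Nr1d2 (r = -0.65, rho = -0.60, permutation p = 6e-05 and 0.00011, -0.57 without the 2 farthest). Clock went against Cry2 (r = -0.52, rho = -0.58, permutation p = 0.00043 and 7e-05, -0.44) and Per2 (r = -0.51, rho = -0.52, permutation p = 0.00022 and 0.00035, -0.41). The 6 pairs of Cry1 with the Per and Nr1d genes and Cry2 had r values from -0.61 to 0.16, of which that with Nr1d2 was called (r = -0.61, rho = -0.54, permutation p = 0.00031 and 0.00111, -0.52 without the 2 farthest). Nr1d1 was in no called pair. Leaving out the mouse that stood apart gave 8 called pairs: those of Arntl with Per2 (edgeR adjusted p = 0.0586) and with Nr1d2 (0.0763), of Npas2 with Nr1d2 (0.0586) and of Cry1 with Nr1d2 (0.0800) were lost. Leaving out the mice with pancreas transcripts also gave 8, without the pairs of Clock and those of Nr1d2 with Npas2 and Cry1. Leaving out lane set 4, which holds the mouse that stood apart, gave 3 (Per1 with Per2, Per2 with Per3, Per3 with Nr1d2), and leaving out lane set 3 gave 7. With the lane set as a block the pairs of Per2 with Arntl and with Clock missed the threshold (edgeR adjusted p = 0.305 and 0.316).

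**Figure D4:**
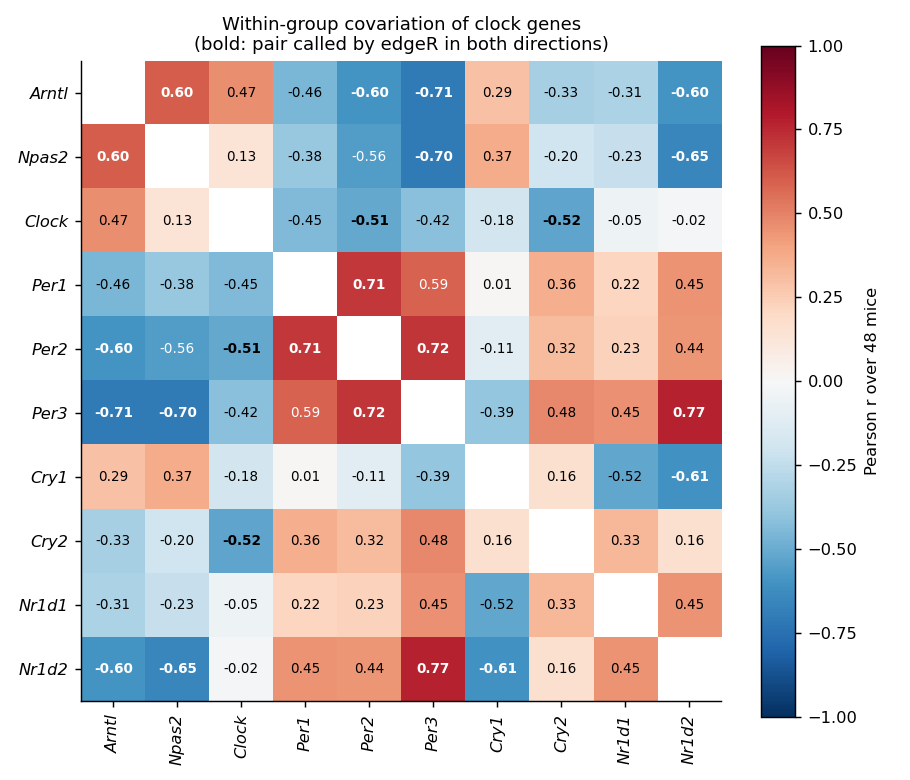
Pearson r of within-group deviations over 48 mice for the 45 pairs of clock genes, with the genes in the same order on both axes and bold type where edgeR called the pair in both directions. Blue cells join Arntl, Npas2 and Clock with the Per and Nr1d genes and Cry2, and red cells join the Per and Nr1d genes and Cry2 with each other.

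How many genes of the whole table covaried with a member differed strongly between members. Within groups 0.685% of 11978 genes covaried with Arntl, 0.451% with Npas2, 1.12% with Per1, 1.14% with Per2, 0.793% with Per3, 0.626% with Cry1, 3.55% with Cry2 and 0.0417% with Nr1d1. For Clock it was 18% and for Nr1d2 20.2%, so that pairs with these genes stand against a larger background. Of the other 9 members, 5 were called with Per2 as covariate, 4 each with Arntl, Clock, Per3 and Nr1d2, 3 each with Npas2 and Per1, 2 each with Cry1 and Cry2, and 0 with Nr1d1. Of the 19 other clock genes, 10 were called with Nr1d2, 8 each with Arntl, Per2 and Per3, and from 0 to 6 with the other members. Levels of other cell types also covaried with some members: of 80 relations between 8 marker lists and the 10 genes, 10 passed an adjusted permutation p of 0.05. The red blood cell genes were higher where Cry2 was higher (r = 0.54, rho = 0.50, adjusted permutation p = 0.0115 and 0.0220, 0.46 without the 2 farthest mice) and lower where Clock was higher (r = -0.52, rho = -0.52, adjusted permutation p = 0.0398 and 0.0196, -0.54). The stellate genes went the other way for Clock (r = 0.55, rho = 0.52, adjusted permutation p = 0.00640 and 0.0184, 0.50). Their part in the pairs was not tested.

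Among genes outside the 10, those most like each member in within-group deviations over 48 mice, given as r without a test, were partly other clock genes. Dbp (r = 0.90) and Tef (r = 0.89) were the closest to Per3, Dbp was also the closest to Nr1d2 (r = 0.77) and the most opposed to Arntl (r = -0.72) and Npas2 (r = -0.68), and Tef was the closest to Per2 (r = 0.77). Chka, a choline kinase, was the closest to both Arntl (r = 0.82) and Npas2 (r = 0.72) and the most opposed to Per3 (r = -0.77). The closest gene to Per1 was Errfi1, a feedback inhibitor of EGF receptor signalling (r = 0.81). Prr14 was the closest to Cry1 (r = 0.67), Sulf2, an extracellular sulfatase, to Cry2 (r = 0.73), Tns2 to Nr1d1 (r = 0.74) and Tgoln1, a Golgi protein, to Clock (r = 0.80). Ppard, a nuclear receptor of lipid metabolism, was close to Cry1 (r = 0.65) and the most opposed to Nr1d1 (r = -0.59). Stat5b, which relays growth hormone signals, was the most opposed to Nr1d2 (r = -0.82).

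The allelic split was even or nearly so for most members and uneven for Per2. Of its counts 33.1% lay on the PWK allele over all mice. In the 23 NODxPWK mice with at least 20 counts the PWK share had a lowest value of 11.1%, a median of 28.5% and a highest of 52.9%, and in the 24 PWKxNOD mice 19.4%, 36.4% and 56.2%. The share was below 50% in 45 of 47 mice, and the 2 exceptions were 1 mouse of each cross. The log2 ratio of PWK over NOD was -1.21 ± 0.11, or 2.31-fold more from NOD (edgeR adjusted p = 2.04e-12). Both alleles were higher in PWKxNOD than in NODxPWK: the NOD allele at 15.4 ± 5.74 and 7.99 ± 2.76 CPM, the PWK allele at 9.09 ± 4.47 and 3.01 ± 1.79 CPM (SD, n = 24 each). The Per2 difference between crosses was thus present on each allele.

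Of the 9 members with enough counts for the allele test, 3 passed, where 43.6% of 9362 genes did. With each allele column scaled by its own total, 6 members and 5147 of the 9362 genes passed. Without that scaling, the members called beside Per2 were Cry2, with a PWK share of 52.9% (log2 ratio 0.20 ± 0.07, edgeR adjusted p = 0.0269), and Clock, with 53.0% (0.18 ± 0.07, edgeR adjusted p = 0.0401). Neither held in every fit. Without the 10 mice with pancreas transcripts Cry2 was at 0.21 (edgeR adjusted p = 0.0503) and Clock at 0.14 (0.211), and without the shallow barcode both were at 0.15 (0.140 and 0.0684). Both calls were also lost without lane sets 3, 4 or 5, at 0.18 to 0.19 for Cry2 and 0.14 to 0.19 for Clock, and that of Cry2 without lane sets 2 (0.20) or 6 (0.19). The PWK share over all mice was 55.1% for Per1, 50.4% for Per3, 50.3% for Cry1, 50.4% for Nr1d2, 48.6% for Arntl and 47.6% for Nr1d1. Per1 had a larger ratio than Cry2 or Clock but a wide spread and no call (0.48 ± 0.23, edgeR adjusted p = 0.0880). Its median share was 58.7% in the 42 mice with at least 20 counts. Npas2 (57.2%) had too few counts to be tested. Of the other clock genes, Bhlhe40 (-0.44 ± 0.04) and Hlf (0.27 ± 0.04), Btrc (0.67 ± 0.11) and Timeless (0.57 ± 0.12) had the smallest p-values.

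**Figure D5:**
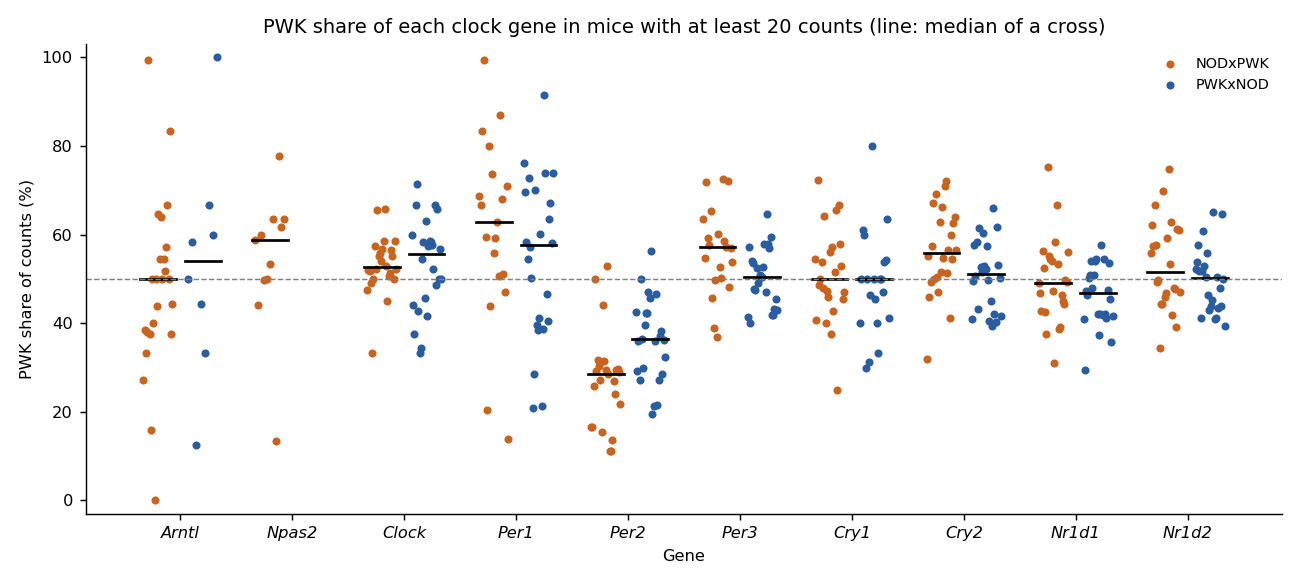
PWK share of counts in percent on the vertical axis in each mouse with at least 20 counts of the gene on the horizontal axis (orange NODxPWK, blue PWKxNOD), with the median of a cross as a line and 50% dashed. Per2 is the gene whose medians (28.5% and 36.4%) lie well under 50%, and the points of Arntl and Per1 spread the most.

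No member had a called effect of the parent from which an allele came (0.267% of genes did), of age on the allele ratio (0.705%) or of diet on it (0.0214%). Per2 came nearest, with a maternal over paternal log2 ratio of 0.36 ± 0.11 (edgeR p = 0.00269, adjusted p = 0.332), and it was called at 1.03 without the 7 mice labelled 25 (edgeR adjusted p = 0.00387) and at 0.54 without the mice with pancreas transcripts (edgeR adjusted p = 0.0154). The shares of single mice spread more than counting alone would give. For Arntl the SD of the share between mice was 21.4 percentage points (n = 32), where counting alone would give 7.38, and single mice ran from almost no PWK counts to 100%. For Per1 these were 19.7 and 6.43 points (n = 42), and for Nr1d2 8.93 and 2.75 points (n = 48). The shares are estimates of the submitters' allele model, and the source of the extra spread was not tested. An exactly even split in every mouse, which 468 of the 9362 genes had (5.00%), was found for no member.

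Whether the split moved with the level was compared for the 10 genes over deviations from group means in 48 mice. Nr1d2 was the 1 gene with an unadjusted permutation p under 0.05: its PWK over NOD ratio was lower where its level was higher (r = -0.51, permutation p = 0.00042, rho = -0.52, permutation p = 0.00039, r = -0.42 without the 2 mice farthest from the median). The r of the other genes ran from -0.30 (Nr1d1) to 0.42 (Per3), and that of Per3 was -0.03 without the 2 farthest mice. With the lane set as a block, Per3 also passed (r = 0.49, permutation p = 0.0373), and without the mouse that stood apart its r was -0.03.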

How the data were processed

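Liver messenger RNA of 48 mice was sequenced as single 68 bp reads from unstranded poly-A libraries, each on 2 flowcells, per the labels' protocols. The deposited values are expected counts of NOD and PWK alleles per gene, with file headings naming EMASE. CASAVA 1.7.0, Bowtie 1.1.2 and GRCm38 are named in the submitters' processing notes, and the sources used here do not state how the 2 flowcells were combined. Both alleles were summed and rounded to whole numbers. Of 38924 gene IDs, 37607 matched GENCODE M21, and the rest held 0.159% of counts.

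Levels were tested with edgeR 4.0.16 in R 4.3.3 (robust quasi-likelihood, TMM, filterByExpr, 8 group means, two-sided), with Benjamini-Hochberg adjustment over 11979 genes and a threshold of 0.05. The biological coefficient of variation was 16.6%. Alleles were tested as 2 columns per mouse with mouse effects, for 9362 autosomal genes with a mean of at least 20 counts. Within-group relations used deviations of log2(CPM + 0.5) and 100000 permutations within groups (two-sided), and pairs were called by edgeR fits with 1 member as covariate. Similar genes had a mean of at least 2 CPM, and up to 4 other clock genes were named per comparison by smallest p-value. Each script was tested on simulated data. The alternatives were DESeq2 1.42.0, limma 3.58.1 on allele ratios, other scalings, filters and pseudocounts, a lane set block, and mice left out. Leaving out the shallow barcode, the mice with pancreas transcripts or the mouse that stood apart was chosen after seeing the data. Python 3.11.15 with scipy 1.17.1 gave the remaining values. The members, lists and tests were chosen with earlier results of these data known.

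The replicate number marks the set of lanes shared by 1 mouse of every group, taken from the labels, and pairs mice by lane set. Deviations of mice of the same number had a mean r of -0.00489, and 32 of 168 such pairs were above 0.1. X-linked counts, which males inherit from the dam, lay at 4.29% to 6.59% on the paternal strain.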

Additional observations from a re-analysis of the deposited data

Results flagged for a closer look

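Of the 80 sets of 6 mice (10 genes in 8 groups), 3 had a mouse far from the others by Dixon's test, which flags about 1 group in 20 by chance. The number flagged was not above that rate. Arntl was at 3.87 CPM in replicate 4 of the younger NODxPWK high vitamin D group, where the next lowest mouse was at 10.2 CPM. Clock was at 26.3 CPM in replicate 3 of the younger PWKxNOD high vitamin D group, where the next was at 39.5 CPM. Nr1d1 was at 29.4 CPM in replicate 4 of the older NODxPWK high vitamin D group, where the next was at 72.1 CPM, and this is the mouse that stood apart in Per3, Per1, Nr1d2 and Npas2.

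The difference between ages was not the same in both crosses for Cry1, with an age by cross term of 1.08 on the log2 scale (edgeR adjusted p = 0.0227). Its mean in older NODxPWK mice on the normal diet was 13.5 CPM, and the means of the other 7 groups lay between 5.95 and 9.43 CPM.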

How the results depend on the processing

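The 8 members called for the cross were called under each alternative, and no value reversed. Without the mice labelled 25, Nr1d1 was called as well, as given above. Leaving out 1 lane set gave 4 to 5 called members for age, 0 to 2 for diet, 0 to 4 for diet in older mice, 0 to 1 for age by diet, 0 to 1 for age by cross, 1 to 3 for PWK over NOD, 3 to 11 called pairs and 1 to 2 relations of level and allele ratio. The replicate block (lane set) gave 1 for diet, 0 for age by cross and 2 for level and allele ratio, and it changed no other count of members by more than 1.5 times. DESeq2 gave 2 for diet. Without the mice labelled 25 there were 0 for diet in older mice, 0 for age by cross, and 1 each for parent of origin, age on the allele ratio and diet on it. Without the shallow barcode there was 1 for diet in older mice and 0 for age by cross. Without the mice with pancreas transcripts there were 3 for age, 0 for diet in older mice, 0 for age by cross, 1 for PWK over NOD and 1 for parent of origin. Without the NODxPWK high older mouse at replicate 4 there were 2 for diet, 4 for diet in older mice and 2 for level and allele ratio. Scaling each allele column by its own total gave 6 for PWK over NOD and 4 for parent of origin, where 5147 and 2729 of 9362 genes passed (4086 and 25 without that scaling), and it shifts the ratios by the totals themselves (-0.15 for PWK over NOD and 0.15 for the maternal over paternal ratio, on the log2 scale, the latter -0.02 over autosomal genes). The cause of the other changes was not tested. Over all genes, the count for age was 777 without the mice labelled 25 and 894 without those with pancreas transcripts, against 1439, and that for the cross 847 without the mice labelled 25, against 1281. Diet called 41 genes, 125 by DESeq2 and 0 without the mice labelled 25, diet in older mice 445 and 5, age by diet 74 and 0, and age by cross 6, 40 by DESeq2 and 0 without the mice labelled 25. Depth limits Npas2, with a median of 5 counts, and the allele shares of Arntl.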
